A study of Triticum aestivum with 8 samples.

Results

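A set of 167 wheat probes was followed that lost at least 16-fold of their signal in the crown after 6 weeks at 4 °C while changing by no more than 2-fold in the leaf after 12 weeks at 4 °C. They were taken from 37826 non-control probes by their measured values. Each probe had to be flagged well above background on all 8 arrays, as 24596 probes were. Its mean log2 level in cold crown had to lie at least 4 below that in crown at 24 °C, and its cold change in leaf between -1 and 1. The 167 probes were 0.679% of the 24596.

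The material was a synthetic hexaploid wheat line, a bread wheat made anew by crossing its ancestral species. The controls were leaf at 24 °C (first leaf) and crown at 24 °C (shoots with the shoot apical meristem), both from plants kept for 3 weeks at 24 °C. Cold leaf and cold crown came from plants that had the same start and then 12 weeks (leaf) or 6 weeks (crown) at 4 °C, so cold-grown plants were also older and the length of cold differed between the tissues. Cy3-labelled total RNA was read on one-colour Agilent oligonucleotide arrays. Each group had 2 arrays, which the labels call independent experiments, so n = 2 throughout, and a p-value here reflects no more than the spread between 2 arrays a group.

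The crown is the base of the shoot, where the growing point, young leaf bases and nodes lie close together. In winter cereals it is the part from which the plant regrows after frost, and long cold there brings both cold acclimation, the gain of freezing tolerance, and vernalization, the change that lets the shoot apex flower. A leaf that was already expanded before the cold has finished most of its cell division, whereas the crown holds dividing and differentiating cells. In such bulk samples, fewer cells of a type and less RNA per cell cannot be told apart.

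Nearly all probes are named by expressed-sequence contigs or clones. None of the 167 has a gene name in the files or in the gene table used here, so no role is given to any of them and no sequence is shown. The tissue labels could not be checked against marker genes for the same reason. The crown controls are called crown in their titles, source names and tissue entries, but their descriptions speak of leaves. Over the 24596 probes their arrays correlated with those of cold crown at r = 0.872 to 0.877 and with those of leaf at 24 °C at r = 0.65 to 0.654.

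Levels below are log2 processed signals relative to the 75th percentile of the array. Brightness differs between probes for reasons of sequence and labelling, so a level is compared between samples of 1 probe and not between probes. Over the 167 probes the median level was 2.39 on each crown array at 24 °C and -3.44 and -3.42 on the cold crown arrays. The medians on the leaf arrays were -1.04 and -1.02 in the controls and -1.20 and -1.22 after the cold. The crown arrays thus lay on either side of a leaf level that hardly moved, a pattern that the selection fixes in part. Scan days did not cross the groups, with 1 day for each, and day and group cannot be told apart in any of these comparisons.

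The crown falls that chose the probes ranged from -12.48 to -4.02 on the log2 scale, with a median of -5.03 against 0.12 over all 24596 probes. Of the 167 probes, 84 fell by at least 5 on the log2 scale, 27 by at least 7, 13 by at least 8 and 3 by at least 10. Their leaf changes ran from -0.98 to 0.99 with a median of -0.21, against -0.12 over all 24596, and lay within 0.5 of no change for 95 probes. Leaf means were lower in the cold for 104 and higher for 63. Leaf and crown changes had r = -0.03 over the 167 probes, a description over probes that share all 8 arrays. The selection limits the range of both changes, so this r does not show that they are unrelated. Over all 24596 probes r was 0.2. Over all probes tested, limma with Benjamini-Hochberg adjustment called 15.9% lower and 20.3% higher by at least 2-fold in cold crown, and 20.6% lower and 12.9% higher in cold leaf; the members were chosen on these contrasts and carry no test there.

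Of 398 probes well above background on all arrays with a crown change of -4 or lower, which are 1.62% of the 24596, the 167 are 42%. A further 198 were also lower in leaf by more than 1, and 33 were higher by more than 1. Among all 24596 probes, 69% had a leaf change within 1.

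The largest fall in the reported scaling was that of wheat0130Contig8165. Its levels were 5.99 and 5.97 on the crown arrays at 24 °C and -6.58 and -6.41 in cold crown. In leaf it stood at -2.69 and -2.66 at 24 °C and at -3.02 and -2.99 in the cold. Its crown signal thus went from far above the leaf level to below it, a 5701-fold fall. Over the alternatives its log2 change ran from -12.61 to -9.46, and with normexp background correction it was -10.11 or, with quantile normalization, -9.46.

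For wheat0130Contig5620 the crown arrays gave 7.10 and 7.12 at 24 °C and -4.41 and -4.15 at 4 °C. The leaf arrays gave -0.73, -0.52, -0.49 and -0.48, the first pair at 24 °C. The 4 leaf values lay close together and far from both crown groups, and the crown fall was 2678-fold. With normexp the log2 changes of -10.75 and, with quantile normalization, -10.35 were larger than those of wheat0130Contig8165, so the order of these probes depends on the background correction.

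Probe rwhr22g15 had crown levels of 3.95 and 3.99 at 24 °C and of -5.86 and -6.24 at 4 °C, a 1037-fold fall. Its cold crown levels were dim, and over the alternatives its log2 change ran from -10.24 to -7.57. The smallest fall was that with normexp and quantile normalization. Its leaf levels were -1.04 and -1.12 at 24 °C and -0.80 and -0.66 at 4 °C. As in the former pair of probes, the leaf values sat between the crown groups without touching either.

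The next falls were 569-fold for rwhcs2h01_132, 565-fold for wheat0130Contig4290, 430-fold for wheat0130Contig6234 and 409-fold for whdp16h12_282. The cold crown levels of wheat0130Contig6234 and whdp16h12_282 were dim, and over the alternatives their log2 changes ran from -9.05 to -5.86 and from -8.97 to -5.71, the smallest falls being those with normexp and quantile normalization. The falls of wheat0130Contig1335, wheat0130Contig1601 and wheat0130Contig1715 were 403-fold, 332-fold and 297-fold. Probe wheat0130Contig4290 had the largest leaf change of these 7, from 1.03 and 0.94 at 24 °C to 0.19 and 0.01 at 4 °C. Probe whdp16h12_282 had unequal cold leaf arrays, at -3.66 and -2.64, so its leaf change of -0.84 is loosely measured.

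Probe wheat0130Contig1601 ended differently. Its crown levels went from 3.90 and 3.86 to -4.58 and -4.40, while the leaf stood at -4.96 and -5.13 at 24 °C and -4.98 and -5.32 at 4 °C. Cold crown came down to about the leaf level and stayed just above it, with no overlap between the groups.

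In the reported scaling the median of crown minus leaf was 3.19 at 24 °C (range -4.59 to 10.60) and -1.97 at 4 °C (range -9.66 to 5.41). The median at 4 °C was -0.26 with spike-in scaling, so how far crown lay below leaf in the cold depends on the scaling. The same medians over all 24596 probes were -0.02 and 0.05. The selection requires the difference at 4 °C to lie at least 3 below that at 24 °C, but it does not set where either lies.

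At 24 °C, 135 of the 167 probes (80.8%) were called higher in crown than in leaf by limma with at least 2-fold and a Benjamini-Hochberg adjusted p under 0.05, against 29.0% of all probes tested. Another 10 (5.99%) were called higher in leaf, against 25.9%, and 22 were not called. At 4 °C, 119 (71.3%) were called higher in leaf, against 23.7% of all probes tested, 6 (3.59%) higher in crown, against 34.6%, and 42 were not called. Since these contrasts use the arrays that chose the members, the counts are a description. They also depend on the scaling at 4 °C. Scaled to spike-in controls, 58 members were called higher in leaf and 40 higher in crown. The median crown minus leaf difference of all 24596 probes was itself 1.76 with that scaling. The 23.7% and 34.6% hold for the reported scaling, so the spike-in counts have no share of all probes beside them.

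Taken by group means, cold crown was lowest, leaf in the middle and crown at 24 °C highest for 127 probes. For 22 the leaf was lowest, and for 18 the leaf was highest. On single arrays, crown at 24 °C exceeded all 4 leaf values for 145 probes and cold crown lay under all 4 for 141. The selection, by a large crown fall and a small leaf change, favours such separation. No share over all 24596 probes is given beside these counts, so they only describe the members.

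The joint calls fell into 5 classes. The selection favours some classes over others, since crown minus leaf had to drop by at least 3 on the log2 scale in the cold. The probes at large met no such demand, so a class share set beside that of all probes reflects the selection in part. The largest, 87 probes (52.1%), was called higher in crown at 24 °C and higher in leaf at 4 °C, a pair of calls made for 1.74% of the 29382 probes tested in both contrasts. Its median levels were 2.63 in crown at 24 °C, -3.86 in cold crown and -0.91 in leaf. In the second class, 42 probes (25.1%, against 5.34% of all) were higher in crown at 24 °C and not called at 4 °C. There the median crown level went from 2.86 to -2.75, close to the median leaf level of -2.32.

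Another 22 probes (13.2%, against 7.0% of all) were not called at 24 °C and were higher in leaf in the cold. Their median level was 0.36 in crown at 24 °C and 1.00 in leaf, and -4.11 in cold crown. For these the control tissues differed by less than 2-fold, and crown minus leaf at 4 °C ran from -7.50 to -2.81.

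In the reported scaling, 6 probes (against 21.7% of all) were called higher in crown at both temperatures: wheat0130Contig13509, wheat0130Contig9269, wheat0130Contig4037, wheat0130Contig10227, rwh4e19 and MUG015B10R990628. The calls at 4 °C depend on the scaling, as given above, and so does the size of each class. For wheat0130Contig13509 the crown arrays gave 4.97 and 4.96 at 24 °C and -0.25 and -0.30 at 4 °C, while the leaf arrays stayed between -5.72 and -5.63. It was 1555-fold above leaf at 24 °C and still 42.6-fold above it after the fall. Probe rwh4e19 went from 3.06 and 2.98 to -1.53 and -1.39 in crown, with leaf values of -4.24, -4.03, -4.79 and -4.73. The other members of this class had crown minus leaf differences at 4 °C of 1.04 to 1.28. They were named as a class of few after their values were seen.

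In the last class, 10 probes (against 16.0% of all) were higher in leaf at both temperatures. The extreme was whsh_allContig470, at 1.92 and 1.65 in leaf at 24 °C, 2.44 and 2.40 in cold leaf, -2.79 and -2.82 in crown at 24 °C and -7.49 and -6.98 in cold crown. It was singled out after its values were seen. Probe wheat0130Contig12800 had leaf levels of 5.22, 5.18, 5.02 and 5.20, and crown levels of 1.66 and 2.23 at 24 °C and -3.65 and -3.78 at 4 °C. Probe wheat0130Contig2894 lay near the upper leaf limit, with leaf levels of 4.49 and 4.33 at 24 °C and 5.38 and 5.40 at 4 °C, and fell from 3.26 and 3.20 to -1.51 and -1.40 in crown. In these 3 probes a leaf signal was kept or a little higher where the crown signal was lowered from an already smaller value.

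The same calls were counted in the neighbouring sets of strong crown falls. Of the 198 strong crown falls that were also lower in leaf, 140 were called higher in crown at 24 °C and 80 higher in leaf at 4 °C, with 40 higher in crown. Of the 33 that were higher in leaf, 27 were higher in crown at 24 °C and 32 higher in leaf at 4 °C. Over all probes tested, 29.0% were called higher in crown at 24 °C. At 4 °C, 23.7% were called higher in leaf and 34.6% higher in crown. Most probes of both sets were thus called higher in crown at 24 °C, as were 135 of the 167, so that call is not particular to the members. The leaf limits sort these sets, so these counts are values and were not tested against those of the 167.

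Several probes kept a well-measured signal after the fall. Probe wheat0130Contig12906 went from 6.90 and 6.91 to 2.80 and 2.79 in crown, with leaf levels of 3.76, 3.57, 3.46 and 3.40. Probe wheat0130Contig10543 went from 6.84 and 6.85 to 1.26 on each cold array, and wheat0130Contig8583 from 5.40 and 5.44 to 1.12 and 1.09. In wheat0130Contig8583 the cold crown values overlapped the leaf range, which was 0.60 to 1.10, whereas in the other two they lay below it.

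Other probes ended near the detection limit, which on the cold crown arrays was -8.47 and -8.38, the dimmest signal that the software still flagged as clear of background. MUGEST2003_23lib_Contig9418_706 went from -4.02 and -4.26 to -8.26 and -8.30. Probe wheat0130Contig1208 went from -2.91 and -2.66 to -8.14 and -8.19, and rwhpc10m24_m_833 from -3.48 and -2.84 to -7.97 and -7.83. The selection required a signal above that limit, and 4 of the 167 lay within 1 log2 unit of it and 19 within 2. On the crown arrays at 24 °C the limit was higher, at -6.09 and -6.08. With all signals below -6.04 raised to that value, 25 members reach it in cold crown, the median fall is -4.91 and 156 of the 167 still fall at least 16-fold. The sizes of the 3 falls just named depend on the treatment of dim signals: with normexp and quantile normalization they were -1.14, -1.98 and -1.69 on the log2 scale, in the same order.

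The demand for a signal on all arrays set 71 further probes aside that met both change limits. Of these, 60 were well above background on both crown arrays at 24 °C and 52 were not so on both cold crown arrays. On the leaf arrays 57 failed it at 24 °C and 36 at 4 °C. The 167 are therefore the strong crown falls with a measurable signal everywhere, 167 of 238 that met the change limits.

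The leaf signals of the members spanned a wide range. Probe wheat0130Contig2304 had leaf levels of 4.25, 4.21, 3.33 and 3.28 and fell from 5.57 and 5.54 to -2.46 and -2.50 in crown. MUGEST2003_23lib_Contig6555_500 had 3.37, 3.42, 4.14 and 4.12 in leaf and fell from 4.86 and 4.83 to 0.47 and 0.63. Both had higher crown than leaf levels at 24 °C and lower ones at 4 °C.

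At the other end stood wheat0130Contig12897, with leaf levels of -5.80, -5.18, -5.49 and -5.48, and crown levels that went from 0.71 and 0.65 to -5.90 and -5.84. Probe wheat0130Contig6542 had -5.47, -5.07, -5.34 and -5.41 in leaf and fell from -1.42 and -1.48 to -6.68 and -6.60. Probe wh10f06 had -4.96, -4.66, -5.61 and -5.46 in leaf and fell from -2.77 and -2.68 to -7.49 and -7.02. In each of the 3 the cold crown lay below the whole leaf range. For wheat0130Contig12897 the margin was smaller than the gap between its leaf arrays at 24 °C. Its crown minus leaf difference at 4 °C, -0.38, was not called (limma, Benjamini-Hochberg adjusted p = 0.114). The falls of wheat0130Contig6542 and wh10f06, -5.19 and -4.53 on the log2 scale as reported, were -4.59 and -3.31 with a common floor and -2.61 and -1.87 with normexp and quantile normalization.

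The sequence-accession probe among the members, ncbi_gi_32128489_1189, fell by 7.75 on the log2 scale, or 215-fold. It was not found in the gene table.

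Gaps between replicate arrays were small beside the falls, which the selection required to be large. Both arrays of a group shared a scan day, and in every group except leaf at 24 °C they also shared a slide. The gaps therefore leave out variation between scan days and, in those groups, between slides. The median gap between the arrays of a group over the 167 probes was 0.05 in crown at 24 °C, 0.07 in cold crown, 0.08 in leaf at 24 °C and 0.07 in cold leaf. The largest gaps were 0.79 for rwhpc13g09_m_277 in crown at 24 °C (-2.73 and -1.94), 1.78 for wheat0130Contig12474 in cold crown (-6.02 and -7.80), 0.80 for MUGEST2003_23lib_Contig16214_387 in leaf at 24 °C and 1.05 for wheat0130Contig4378 in cold leaf (-3.92 and -2.87). The last 3 were picked for their gaps after the values were seen. In crown at 24 °C the gap passed 0.3 for 3 members, rwhpc13g09_m_277, rwhpc10m24_m_833 and wheat0130Contig12800, and the median of array 2 minus array 1 was -0.02, against -0.01 over all 24596 probes.

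The scanner software marked 22 of the 1336 member spots as outliers, in 17 probes (10.2%, against 11.4% of the 24596). By size of fall the first of these were wheat0130Contig1715, wheat0130Contig1680, wheat0130Contig9269, wheat0130Contig6434 and rwhr10k08. For wheat0130Contig1715 the marked spot read 3.97 in crown at 24 °C, beside 3.95 on the other array. The members were spread over the array, from row 13 to row 526 of 532 and over columns 1 to 85 of 85.

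At the crown limit the last probes taken were rwhsd9d14_201 at -4.02, rwh19l04_2 at -4.04 and wheat0130Contig6364 at -4.04, and the first left out were rwhh6g11 at -3.998, wheat0130Contig10858 at -3.96 and wheat0130Contig5667 at -3.96. At the lower leaf limit wheat0130Contig1208 at -0.98, wheat0130Contig8256 at -0.97 and whsh_allContig816 at -0.96 were in. Just outside it were ncbi_gi_4218534_936 at -1.03, wheat0130Contig15474 at -1.04 and MUGEST2003_23lib_Contig9224_10 at -1.04. At the upper leaf limit rwhdl9p03 at 0.99, wheat0130Contig2894 at 0.98 and wheat0130Contig6068 at 0.92 were in, and MUGEST2003_23lib_Contig16006_528 at 1.01, wheat0130Contig2522 at 1.10 and MUGEST2003_23lib_Contig12601_889 at 1.14 were out. The probes on either side of a limit thus differ by less than some replicate gaps.

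A check on other spots came from companion probes that carry the clone or contig name of a member, apart from a leading r or a suffix. What the leading r and the suffixes stand for is not stated in the sources used here, so a companion may read another stretch or the other strand. Of the members, 12 had 14 companions, none of which was itself a member. The selection did not use the companions' values, although they come from the same arrays, and 7 of them had a signal well above background throughout. Of these 7, limma with Benjamini-Hochberg adjustment called 6 lower in cold crown by at least 2-fold, against 15.9% of all probes tested, and the 7 crown changes had a median of -2.33.

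Of the 7 companions with signal on all arrays, whyf27k02 had the largest change in the reported scaling. Its crown levels went from -3.92 and -3.84 to -7.57 and -7.96, a change of -3.89 ± 0.190 (standard error; adjusted p = 2.22e-05 by limma and Benjamini-Hochberg). The member rwhyf27k02 went from 2.77 and 2.69 to -2.24 and -2.21, a change of -4.96. Both fell, and in neither did the crown groups overlap. The cold crown signal of whyf27k02 was dim, and its change was -2.16 with a common floor and -1.82 and -1.05 with normexp before the 75th percentile and before quantile normalization, smaller than the changes of whoh6c18 under those settings.

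Companion whoh6c18 went from -0.44 and -0.46 to -3.76 and -3.96, a change of -3.41 (limma, Benjamini-Hochberg adjusted p = 2.05e-06), against -4.67 for rwhoh6c18. In leaf, whoh6c18 was also lower in the cold, by 2-fold or more, with a change of -1.30 (limma, Benjamini-Hochberg adjusted p = 5.31e-05), whereas rwhoh6c18 changed by -0.51 there. Probes of 1 clone name thus lay on both sides of the leaf limit.

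The crown change of whr7c08 was -2.62 (limma, Benjamini-Hochberg adjusted p = 1.31e-05), against -5.36 for rwhr7c08. For whr8h16 it was -2.33 (adjusted p = 1.04e-05 from the same limma fit), against -4.12 for rwhr8h16, and both of these probes were brighter in leaf than in crown on all arrays. For wh19l04 it was -2.29 (limma, adjusted p = 0.000152), against -4.04 for rwh19l04_2. These 3 companions fell beyond their replicate spread, and by less than the member of their name did. For dim companions the fall depended on the background: with normexp and quantile normalization the changes of whr7c08 and wh19l04 were -0.38 and -0.53, short of the 2-fold limit, and with a common floor that of whr7c08 was -0.87.

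Companion whoh4j02 went from 1.45 and 1.62 to 0.49 and 0.46 in crown, a change of -1.06 (limma, Benjamini-Hochberg adjusted p = 0.000168), while rwhoh4j02 fell from 4.70 and 4.72 to 0.51 on each cold array. The companion's call lies at the 2-fold limit and was lost with quantile normalization (-1.0), cyclic loess (-0.99), spike-in scaling (-0.07) and without array 2 of crown at 24 °C (-0.98). Companion whr17e24 changed by -0.71 (limma, Benjamini-Hochberg adjusted p = 0.00356), under the 2-fold limit, and by 0.29 with spike-in scaling, where its direction turned; rwhr17e24 changed by -4.43. In all 7 pairs the member, which was chosen for a large fall, had the larger one. Over all 756 pairs of probes that differ in name by the leading r and had a clear signal on each of the 8 arrays, the crown changes had r = 0.62, a description across pairs measured on the same arrays.

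The other 7 companions were dim on at least 1 array. Of these, rwhpc10m24_p_825 was well above background on 7 arrays and fell in crown from -2.48 and -1.47 to -7.85 and -8.06 (limma change -5.98, Benjamini-Hochberg adjusted p = 4.08e-05). It was also lower in cold leaf, at -8.41 and -8.02 against -3.81 and -3.54 (limma, Benjamini-Hochberg adjusted p = 0.000117), with 1 of the cold leaf arrays not well above background, whereas the member rwhpc10m24_m_833 was higher in cold leaf by 0.91. The companions of MUGEST2003_23lib_Contig2134_p_407 and rwhpc13g09_m_277 were not tested, as neither crown group had both arrays well above background. Those of wheat0130Contig4166_2 and wheat0130Contig7570_2 fell by 3.01 and 3.35 in crown (limma, Benjamini-Hochberg adjusted p = 5.53e-05 and 1.86e-05), and neither was well above background on both arrays of a leaf group. A second companion of rwhpc10m24_m_833, whpc10m24_498, fell by 4.22 in crown (limma, Benjamini-Hochberg adjusted p = 0.000247). It was also called lower in cold leaf, with a change of -3.86 (limma, Benjamini-Hochberg adjusted p = 0.000355), with neither cold leaf array and 1 cold crown array well above background. The last, rwh19l04, was well above background on the crown arrays at 24 °C, at -5.55 and -5.18, and on no other array. Its crown change was -5.0 (limma, Benjamini-Hochberg adjusted p = 6.02e-05), a larger fall than the -4.04 of rwh19l04_2. Its leaf change of -2.49 was not tested, and both sizes rest on signals not clear of background.

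By probe name, 89 members (53.3%) belonged to the wheat0130Contig series, which made up 41.9% of the 24596, and 32 (19.2%, against 18.1%) to the MUGEST2003_23lib series. Clones of the whr series, written with or without a leading r, gave 11 members (6.59%, against 1.69%). The shares were also taken among all 398 probes with a crown change of -4 or lower, whatever their leaf change. They were 47.2% for wheat0130Contig, 21.1% for MUGEST2003_23lib and 5.28% for whr. The 398 include the 167 members, so these shares partly repeat those of the members. They cannot settle whether a share is particular to the members, and the wheat0130Contig share of the members lay above that of the 398. The crown falls of the 11 whr members had a median of -4.81, where the selection itself required a change of -4 or lower. All 415 whr probes well above background on all arrays had a median crown change of -0.03. What the series stand for is not stated, the series were looked at after the values were known, and no test was made of them.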

How the data were processed

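Levels were measured on 8 one-colour (Cy3) Agilent arrays, 2 in each of 4 groups taken from the sample titles. Per the file headers, the intensity values are processed signals of Agilent Feature Extraction, version 9.5.3.1 for leaf at 24 °C, 10.7.3.1 for crown at 24 °C and 10.5.1.1 for both cold groups, background-subtracted within each array. Version 9.5 is given in the submitters' processing notes. Other columns used hold, per the file headers, 0 or 1 flags and the class of each spot. The authors also deposited a table of scaled intensity, whose scaling is not stated; it served as an alternative.

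From the log2 processed signal the 75th percentile of the array was subtracted, taken over 37826 non-control probes (1417 control spots left out). Members were kept by the limits given in the report, without a test. Limma 3.58.1 in R 4.3.3 fitted 1 mean per group to the 8 arrays together (4 residual and 1.4 prior degrees of freedom). A probe was tested where both arrays of either group compared flagged it well above background, and p-values were adjusted by Benjamini-Hochberg over the probes tested. A call needed an adjusted p under 0.05 and at least 2-fold. The fit was tested on simulated data. The smallest two-sided p of an exact permutation test on 2 against 2 arrays is 0.333, so none was run. The number of arrays limits the precision.

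Between 72.1% and 85.6% of probes were well above background on an array, and no spot was saturated. Each group had a scan day of its own (4 days, 5 slides), and leaf at 24 °C a scanner of its own, so scan day and group cannot be told apart. Software version differed between the groups in every comparison except crown against leaf at 4 °C.

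The members, lists and tests were chosen with earlier results of these data known. Named probes were those with the 10 largest falls, the 5 highest and 5 lowest leaf levels, the 3 highest and 3 lowest cold crown levels, the 3 highest crown levels and 3 largest array gaps in crown at 24 °C, the 3 nearest each limit, and probes with outlier flags, companions or an accession as name (5 each by size of fall where a list passed 10). All companions well above background on every array, and the classes of 10 or fewer, were named beyond that rule, after their values were seen. The planned lists of tissue and cold markers need gene names and were not used. The alternatives were other scalings and background corrections, the authors' table, a common floor, outlier spots left out, other limits and filters, the replicate block and leaving out each array. The normexp correction used the median spot signal.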

Additional observations from a re-analysis of the deposited data

How the results depend on the processing

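All 167 probes (166 with outlier spots left out) were lower in cold crown by at least 2-fold under every alternative run; the smallest fall was -1.14, with normexp and quantile normalization. With the members held fixed, the median crown change, -5.03 as reported, was -5.20 with quantile normalization, -5.13 scaled to the median, -4.04 scaled to spike-in controls, -5.07 with cyclic loess, -4.48 and -4.36 with normexp before the 75th percentile and before quantile normalization, and -4.91 with a common floor. In the same order up to the second normexp, the median leaf change, -0.21 as reported, was -0.02, 0.02, 0.18, -0.13, -0.43 and -0.06, and it was -0.14 in the authors' table. The median crown minus leaf at 24 °C was likewise 3.00, 3.12, 4.31, 3.26, 2.85 and 2.81, with 3.04 in the authors' table and 3.16 without outlier spots. At 4 °C it was -2.35, -2.37, -0.26, -2.09, -1.49 and -1.44, with -2.19 in the authors' table and -1.83 with a common floor. Spike-in scaling moved the median crown change of all 24596 probes to 1.11. Spike-in scaling left 58 members called higher in leaf at 4 °C in place of 119. No share of all probes called under that scaling is given, and the cause was not tested. The crown array difference at 24 °C was -0.06 scaled to the median. The rule kept 100 probes with spike-in scaling, 77 of them shared, 347 and 84 with crown limits of -3 and -5, and 95 with a leaf limit of 0.5. Leaving out each array in turn gave 164 to 168 probes, crown medians of -5.05 to -5.0, leaf medians of -0.23 to -0.19, tissue medians of 3.14 to 3.19 and -1.99 to -1.95, an array difference of -0.02, 134 to 136 called higher in crown at 24 °C and 117 to 119 higher in leaf at 4 °C. Of the 7 companions, 6 were called lower in cold crown as reported, 4 with normexp and quantile normalization, 5 with quantile normalization, spike-in scaling, cyclic loess or a common floor, and 5 to 6 leaving out each array; the alternatives for companions were chosen after the data were seen. With spike-in scaling whr17e24 changed by 0.29. Replicate numbers are shared between groups. The array 2 minus array 1 differences of 1 group correlated with those of another at -0.07 to 0.10 over the 24596 probes. These values show no sign of pairing by number, but 1 difference per group cannot settle it. With the replicate block 135 and 119 members and 6 companions were called, as without it. Detection limits that differ between groups bound the falls of the dimmest probes.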
